A study of Rattus norvegicus with 6 samples.

Results

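Potassium channel genes outside the KCNQ family are described here through the CpG sites of rat dorsal root ganglia assigned to them. The members are all sites of the deposited series table whose nearest annotated transcript start belongs to a gene with a Kcn symbol, leaving out Kcnq symbols. They number 288 of 32674 sites and lie beside 54 of the 8016 genes of that table. The ganglia came from male Sprague-Dawley rats of 8 to 9 weeks and about 220 g. In the 3 SNL libraries they were taken 3 weeks after spinal nerve ligation, a nerve injury model in which lumbar spinal nerves (L5 and L6, left side) are tied off with silk. In the 3 Sham libraries they were taken 3 weeks after an operation without ligature, done on the opposite side per the labels. No transgene or drug is named for either group. Libraries of both groups may thus come from the same animals, and the labels do not say which libraries are separate animals, so the spread between libraries may be technical in part.

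Potassium channels let potassium leave the cell, which sets the resting potential and ends action potentials. In sensory neurons and their satellite glia they are brakes on excitability, and reduced potassium channel expression after nerve injury is a known feature of neuropathic pain models. Methylation of CpGs in a promoter generally accompanies a silent gene, whereas CpGs in gene bodies and between genes are methylated in most tissues. The comparison asks whether methylation beside these channel genes differs between the ligated and the sham side.

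Reduced representation bisulfite sequencing reads fragments that begin and end at CCGG, the site cut by MspI, so it covers CpG-rich stretches. A methylation level is the percent of reads at a CpG that kept a C. At the member sites coverage ran from 100 to 2166 reads per library with a median of 222 reads, and libraries of the same group differed at a site by a median SD of 2.03 percentage points. A gene's sites are those nearest to its listed start. Their median distance was 56.0 kb, against 45.0 kb over the whole table, and 8 lay more than 1000 kb away. The authors' exon and intron flags do not name a gene. A flagged site may thus lie in a gene other than the one assigned. No expression was measured in the files used here, and ganglia mix neurons with glia and other cells, so a difference in methylation and a difference in cell makeup cannot be told apart.

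RefSeq promoter windows of the assembly GRCr8 were found for 39 of the 54 genes (42 windows). Their 250 bases before the start held a median of 13 CpGs, with 1 to 44 per window, against 5 over all 33469 windows. The motif CCGG, which reads the same on both strands and contains the motif CG, was present in 30 of the 42 windows (71.4%) and in 46.2% of all windows. The windows of Kcnt2, Kcnab3 and Kcng4 are shown because a CpG-rich start, an intermediate one and a CpG-poor one stand beside measured sites, a choice made after their values were seen. They are written 5′ to 3′ on the gene's strand, with every CpG in capitals.
Kcnt2 (GRCr8, chr13:54215057-54215306, plus strand): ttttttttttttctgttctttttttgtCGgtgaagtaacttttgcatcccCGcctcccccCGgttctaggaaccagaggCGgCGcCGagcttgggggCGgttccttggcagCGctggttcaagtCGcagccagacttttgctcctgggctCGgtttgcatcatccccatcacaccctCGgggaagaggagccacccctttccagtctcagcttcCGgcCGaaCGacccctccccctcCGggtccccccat
Kcnab3 (GRCr8, chr10:54546388-54546637, plus strand): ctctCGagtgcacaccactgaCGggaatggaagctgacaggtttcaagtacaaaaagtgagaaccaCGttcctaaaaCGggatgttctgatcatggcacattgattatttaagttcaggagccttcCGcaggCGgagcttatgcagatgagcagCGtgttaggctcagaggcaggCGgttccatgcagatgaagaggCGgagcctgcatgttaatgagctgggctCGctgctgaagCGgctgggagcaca
Kcng4 (GRCr8, chr19:64597889-64598138, minus strand): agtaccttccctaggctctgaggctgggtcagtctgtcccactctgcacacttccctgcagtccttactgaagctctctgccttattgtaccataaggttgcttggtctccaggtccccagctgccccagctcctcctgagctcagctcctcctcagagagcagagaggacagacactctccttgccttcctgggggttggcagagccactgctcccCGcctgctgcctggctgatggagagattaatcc
The Kcnt2 window holds 15 CpGs and 3 copies of CCGG, the Kcnab3 window 11 CpGs and no CCGG, and the Kcng4 window 1 CpG and no CCGG. The 3 measured Kcnt2 promoter CpGs lie at -296, -273 and -263 bp from the start listed for the older assembly rn4. Their spacing matched CpGs of the GRCr8 window at 1 shift only, with the CpGs at -223, -200 and -190 from the RefSeq start, 1 of them inside a CCGG. This is a match of letters and spacing, not a conversion of coordinates, and it is reported for Kcnt2 only.

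Channel gene starts were almost free of methylation. Of the 21 member sites within 1 kb of a start, 20 stood below 5%, and the authors flag all 21 as promoter. They belong to 6 genes. Kcnk6, a K2P channel, which has tandem pore domains and carries background potassium current, had 6 CpGs, from -74 to -104 bp relative to its start, at 0.85% to 2.35%. Kcnt2, the sodium-activated channel Slick, had its 3 promoter CpGs at 1.29%, 0.64% and 2.87%, on 366 or more reads in each library. Kcnh5, a voltage-gated channel of the EAG family, had 5 CpGs 232 to 272 bp after its start at 0.80% to 3.43%. Kcnab2 and Kcnab3 encode beta subunits that bind voltage-gated channels from the cytoplasm. The 3 sites of Kcnab2 stood at 1.37% to 2.50% and the site of Kcnab3, 164 bp after its start, at 4.43%.

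Kcnk2, the mechanically gated K2P channel TREK-1, was the exception. It has more than 1 listed start. Next to one of them the CpGs at -122 and -152 bp stood at 1.79% and 3.82%, while a CpG at -723 bp from the other stood at 58.1% on 1446 or more reads. That last CpG read 58.9%, 55.1% and 59.4% in SNL 1 to 3 and 56.8%, 57.5% and 60.8% in Sham 1 to 3, so the groups overlapped. Low levels also reached just beyond the promoters at several genes. All 6 sites of Kcna1, the Kv1.1 channel of axons, lay 1.1 kb upstream of its start and stood at 1.81% to 3.23%. Sites of Kcnj3, Kcng3 and Kcnk9 within 1.8 kb of their starts stood between 0.98% and 5.17%. The site of Kcnh2, 1.5 kb from its start, stood at 11.2%, and that of Kcnj9, at 2.2 kb, at 47.7%. Kcng4 differed most, with CpGs 1062 and 1096 bp after its start at 89.3% and 69.5%.

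**Figure D1:**
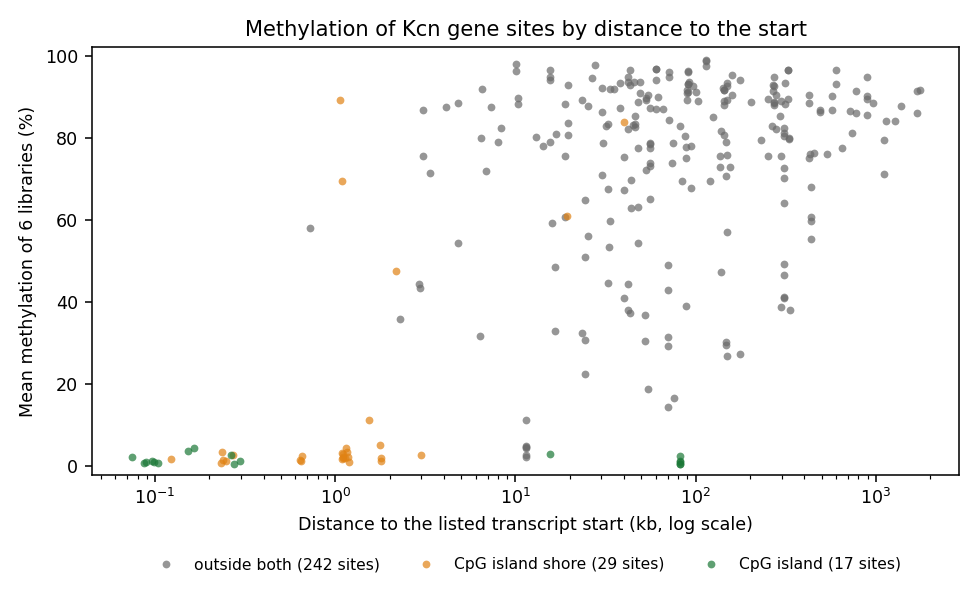
Mean methylation of the 6 libraries (%) at each of the 288 sites against the distance to the listed start (kb, log scale), coloured by CpG island context. Sites within 1 kb sit near 0% apart from the Kcnk2 site at 58.1%, and sites farther out spread up to 99.0%.

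Methylation followed CpG context and distance from the start. The 17 member sites in CpG islands averaged 1.79%, the 29 in the flanking shores 14.4% and the 242 outside both 74.4%. Over the whole table these classes averaged 9.98%, 29.6% and 75.3%. Of the 46 island and shore sites, 39 stood below 5%. By distance the mean was 4.57% within 1 kb, 40.2% from 1 to 10 kb, 68.6% from 10 to 50 kb, 70.9% from 50 to 200 kb and 80.3% beyond. Introns averaged 76.8% (93 sites), intergenic sites 65.7% (157 sites) and exons 53.1% (17 sites), against 73.3%, 71.1% and 76.0% over the table. The exon figure comes from 5 genes. Island sites far from a start were also unmethylated. In the region assigned to Kcnrg, a regulator of voltage-gated channels, 5 CpGs of an island 81.8 kb from its start stood at 0.67% to 2.64%. The island site of Kcnj1, the renal ROMK channel, stood at 3.10%.

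Sites of 1 gene could differ widely. Among the 45 genes with 2 or more sites the median span between the lowest and the highest site was 38.5 points, and in 20 genes it was over 50 points. The widest span, 97.2 points, was that of Kcnk2, from 1.79% beside its start to 99.0% in an intron 114.2 kb away. Kcnk1, the K2P channel TWIK-1, had the most sites (21) and ran from 14.5% to 90.4%.

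Close neighbours mostly stood at like levels. Of 234 pairs of member sites within 50 bp, 180 differed by under 10 points and the median gap was 3.18 points. The exceptions were in few genes, with 19 pairs in 8 genes over 20 points apart. Large gaps were at Kcnma1, the calcium-activated BK channel (46.7% and 82.3%, 17 bp apart) and at Kcnj8, the KATP pore subunit Kir6.1 (92.5% and 57.1%, 43 bp apart). Close sites can share reads. At 3 places both neighbouring positions of 1 CpG are listed, and their levels were 0.21, 3.23 and 6.12 points apart.

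The comparison of SNL with Sham gave no called member. Each site was tested with a logistic regression on read counts, with the overdispersion moderated across the table and Benjamini-Hochberg adjustment over all 32674 sites. At an adjusted p under 0.05, 0 of the 288 member sites were called, while 1.42% of all sites were (464 of 32674), 1.24% lower after SNL and 0.181% higher. The lowest adjusted p of a member was 0.0563. How the overdispersion is moderated was settled after calls had been seen, and 1 of the 6 other versions tried, a robust one, called 3 members (Kcnk9, Kcng4 and Kcnj5, adjusted p = 0.0174, 0.0302 and 0.0292). Unadjusted p was under 0.05 at 29 member sites (10.1%) beside 13.1% of all sites. An F test without moderation and limma on logit values called none of all 32674 sites, so their 0 for members adds no support. They gave 12 and 24 member sites at an unadjusted p under 0.05. The groups did not overlap at 37 member sites (12.8%), against 17.8% of all sites. No member mean differed by 10 points, as 1.92% of all sites did.

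Most site means leaned to the same side. The mean after SNL was the lower one at 198 of 288 sites (68.8%), beside 61.3% over the table, and the median difference was -1.02 points beside -0.55. Averaged over the member sites, methylation was 64.5%, 63.1% and 62.9% in SNL 1 to 3 and 64.1%, 64.9% and 65.0% in Sham 1 to 3. The first SNL library thus lay inside the range of the Sham libraries. The group means were 63.5% ± 0.9 and 64.7% ± 0.5 (SD, n = 3), a difference of -1.20 points. Over all annotated sites the difference was -0.92 points, so part of the lean is a shift that the members share with the table. The members were not tested against the rest.

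**Figure D2:**
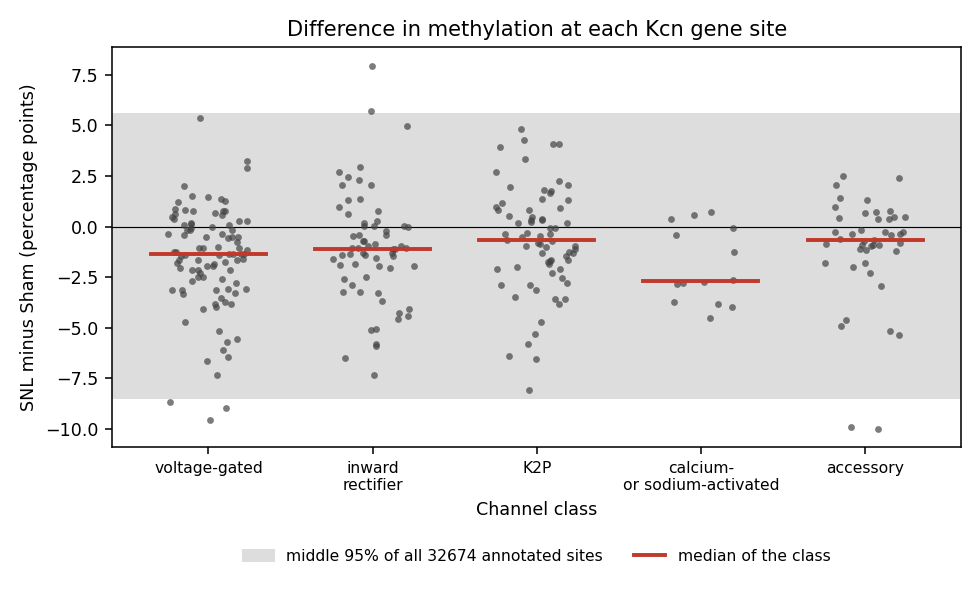
Difference in methylation, SNL minus Sham in percentage points, at each member site by channel class, with the class median (red line) and the middle 95% of all annotated sites (grey band). All but 7 of the 288 sites lie inside the band, and the class medians run from -0.65 to -2.68 points.

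Voltage-gated pore subunits, which open on depolarisation, made up 95 sites of 20 genes. They averaged 59.8% ± 0.7 in the SNL libraries and 61.4% ± 1.0 in the Sham libraries (SD, n = 3), and the first SNL library, at 60.6%, exceeded the lowest Sham library, at 60.4%. The gene with the lowest p when reads were summed over its sites was Kcng4, a silent subunit that modifies Kv2 channels. Its sums read 77.7%, 77.9% and 76.2% in SNL 1 to 3 and 78.5%, 83.6% and 82.3% in Sham 1 to 3, with no overlap (adjusted p = 0.221 by the same logistic test over 8016 genes). Its site 1096 bp from the start (chr19, position 49891472, rn4, intron, shore) read 65.7%, 67.2% and 65.7% after SNL and 70.0%, 75.2% and 73.2% in Sham. All SNL libraries lay below all Sham libraries there, a difference of -6.63 points (95% interval -10.4 to -2.85, adjusted p = 0.0642, 404 to 676 reads). The neighbouring CpG, 34 bp away, stood at 88.5% ± 1.5 against 90.1% ± 2.8 (SD, n = 3). The 95% intervals given here are per site, without adjustment for the number of sites. At sites chosen by low p they overstate how clear a difference is.

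Kcnv1, a silent subunit, had a site 453.2 kb upstream at 73.2% ± 2.1 against 79.3% ± 1.7 (SD, n = 3; adjusted p = 0.214). Kcnh1, the EAG1 channel, with 12 sites, stood at 88.1% ± 1.7 and 88.9% ± 0.5 in its sums, and Kcnh5 at 26.9% ± 2.6 and 30.6% ± 2.2. The class ran from Kcna1 at 2.22% ± 0.15 and 2.61% ± 0.28 to Kcns2, another silent subunit, at 95.5% ± 0.5 and 94.8% ± 0.4.

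Inward rectifiers, which pass potassium more readily into the cell than out of it, made up 64 sites of 10 genes and had the highest class mean (74.7% ± 1.0 after SNL, 75.7% ± 0.5 in Sham). Kcnj5 encodes GIRK4, a channel opened by G proteins. A site assigned to it, 54.7 kb from the start, is flagged as intron (chr8, position 32049741). That site read 87.9%, 84.5% and 89.4% after SNL and 93.1%, 92.8% and 95.3% in Sham. Those groups did not overlap (difference -6.49 points, 95% interval -10.1 to -2.91, adjusted p = 0.0664, 249 to 282 reads). Its 9 sites together stood at 91.4% ± 0.8 and 92.4% ± 0.3.

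Kcnj10, the Kir4.1 channel of satellite glia, was the only gene among the 12 lowest-p sites where the SNL mean was the higher one. Its site, flagged as intron (chr13, position 88357605, 16.5 kb from the start), read 52.3%, 54.5% and 51.0% after SNL and 43.3%, 51.4% and 39.3% in Sham. The second Sham library reached into the SNL range. The difference was 7.97 points (95% interval 2.57 to 13.4, adjusted p = 0.185, 457 to 651 reads). Without that library the adjusted p of the same test was 0.0309, and without any other library it ran from 0.206 to 0.557. A CpG 47 bp away stood at 34.0% ± 4.2 and 31.9% ± 4.2, and the gene's sum at 41.9% ± 3.2 and 37.3% ± 5.0 (SD, n = 3). Among other members of the class, sites of Kcnj1 (75.2% ± 3.8 against 82.6% ± 2.2), Kcnj3, a GIRK1 subunit (82.7% ± 2.8 against 87.8% ± 1.2), and Kcnj15 (84.1% ± 2.9 against 90.1% ± 1.7) had no overlap, with adjusted p of 0.215, 0.199 and 0.22. Kcnj16, with 9 sites, was the most methylated gene of the class (92.9% ± 0.4 and 93.9% ± 0.3 in its sums). Kcnj2, the Kir2.1 channel, had 15 sites at 79.7% ± 1.7 and 81.7% ± 0.8, and Kcnj8 12 sites at 83.0% ± 1.2 and 84.5% ± 1.0.

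K2P channels made up 71 sites of 10 genes, with means of 62.7% ± 0.6 and 63.4% ± 0.2 (SD, n = 3). The lowest p of any member site lay here, in the region assigned to Kcnk9, the acid-sensitive TASK-3 channel (chr7, position 108885696, 1381.9 kb from its start, intergenic). It read 84.0%, 86.3% and 83.6% after SNL and 90.3%, 89.1% and 93.7% in Sham. No library of one group reached the other (difference -6.41 points, 95% interval -9.64 to -3.19, adjusted p = 0.0563, 380 to 568 reads). So distant a site may bear on other genes, and the 3 Kcnk9 sites 1.8 kb from the start stood at 5.29%, 1.45% and 2.24% after SNL and 5.05%, 1.12% and 1.84% in Sham. At Kcnk2 an intron site 100.3 kb from the start stood at 88.7% ± 0.6 against 93.4% ± 1.4 (adjusted p = 0.198). In its sums Kcnk1 stood at 47.4% ± 0.3 and 48.0% ± 0.5 and Kcnk5, the TASK-2 channel, at 68.7% ± 1.2 and 70.5% ± 2.0. Kcnk6 was the least methylated of the class (10.5% ± 2.5 and 11.2% ± 4.2) and Kcnk16 the most (82.3% ± 3.1 and 83.4% ± 5.5).

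Channels opened by calcium or sodium were represented by 14 sites of Kcnma1, Kcnn2 and Kcnt2. Kcnma1 had 7 sites within 42 bp, 310.8 kb from its start, and its sums varied most among these, at 69.6% ± 6.3 and 72.5% ± 5.6 (SD, n = 3). Kcnn2, the SK2 channel, stood at 84.1% ± 1.5 and 85.1% ± 2.5, and Kcnt2, with 3 of its 4 sites in the promoter, at 9.82% ± 0.22 and 10.8% ± 1.1.

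Accessory subunits and regulators made up 44 sites of 11 genes. The largest difference of any member, -9.998 points, was at a site assigned to Kcnrg, 2.9 kb upstream of its listed start (chr15, position 40751361). Its flag is exon, which upstream of that start must belong to another transcript. The site read 40.4%, 38.5% and 36.5% after SNL and 49.6%, 50.9% and 44.9% in Sham. The groups were apart (95% interval -17.5 to -2.46, adjusted p = 0.219, 115 to 179 reads), and the CpG 18 bp away stood at 39.5% ± 6.7 and 49.4% ± 4.6. The KChIP proteins, encoded by Kcnip genes, are calcium-binding partners of Kv4 channels. Kcnip1 (9 sites, 67.9% ± 0.5 and 68.2% ± 0.4) and Kcnip4 (9 sites, 82.0% ± 1.9 and 84.4% ± 2.6) had the most sites, and Kcnip3 the highest level (92.5% ± 1.8 and 91.1% ± 1.6). One Kcnip4 site, 487.2 kb from the start, stood at 83.7% ± 1.4 against 89.0% ± 3.3 (adjusted p = 0.214). Kcnab2 was the least methylated, at 1.85% ± 0.81 and 1.75% ± 0.68.

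**Figure D3:**
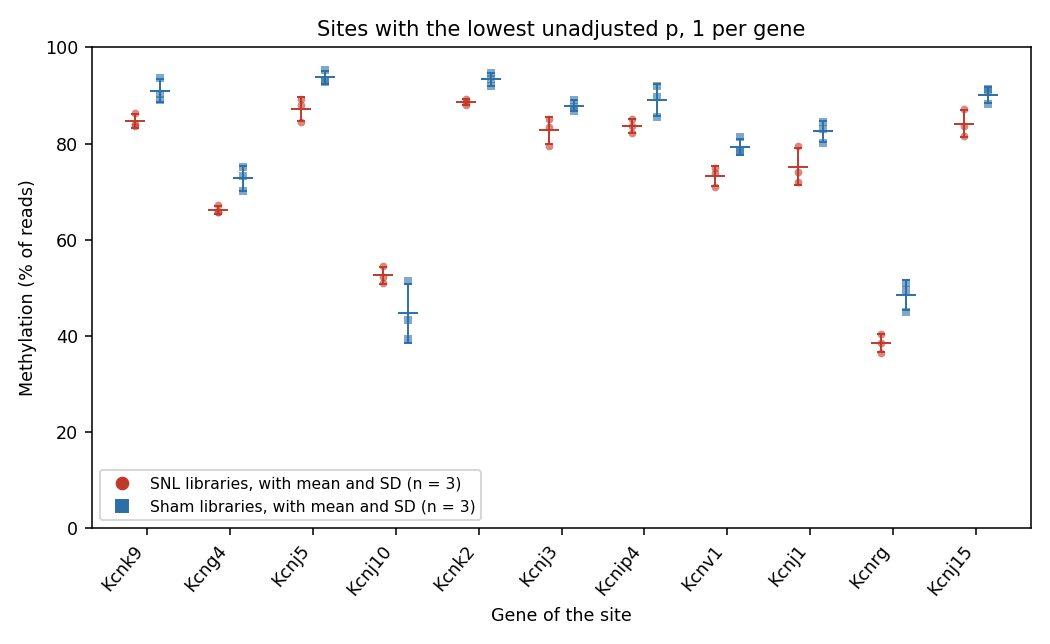
Methylation (% of reads) in each SNL and Sham library, with mean and SD (n = 3), at 11 of the 12 member sites with the lowest unadjusted p, 1 per gene. The groups are apart at every site shown but that of Kcnj10, which the choice by low p favours. None had an adjusted p under 0.05. Over all members the groups did not overlap at 12.8% of sites, against 17.8% of all annotated sites.

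With reads summed over each gene's sites, 0 of the 54 genes were called, against 0.536% of all genes (43 of 8016), and 5 had an unadjusted p under 0.05 (9.26%, against 13.7% of all genes). All 5 were voltage-gated subunits, chosen here by that p, among them Kcng4, Kcnh5, Kcnf1 and Kcnv1. The groups did not overlap in 7 genes (13.0%, against 19.5%). The F test without moderation and limma also called 0 of the 54, with 1 and 2 genes at that level. Over all genes they called 0 and 6. In 42 genes (77.8%) the SNL mean was the lower one, beside 66.9% of all genes. The median difference was -1.01 points beside -0.79 over all genes. Lowest p in each of the other classes belonged to Kcnj16, Kcnk9, Kcnt2 and Kcnip4, with adjusted p from 0.398 to 0.623. In the sums the largest negative difference was that of Kcnj1 (33.3% ± 5.21 and 40.02% ± 7.77, adjusted p = 0.572), a gene chosen by that value. Its 2 sites, at mean levels of 3.10% and 78.9%, differed by 0.29 and -7.33 points. Sums weigh sites by their reads, so a change in the share of reads per site also moves a sum. A sum over sites of unlike level thus need not reflect methylation alone.

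**Figure D4:**
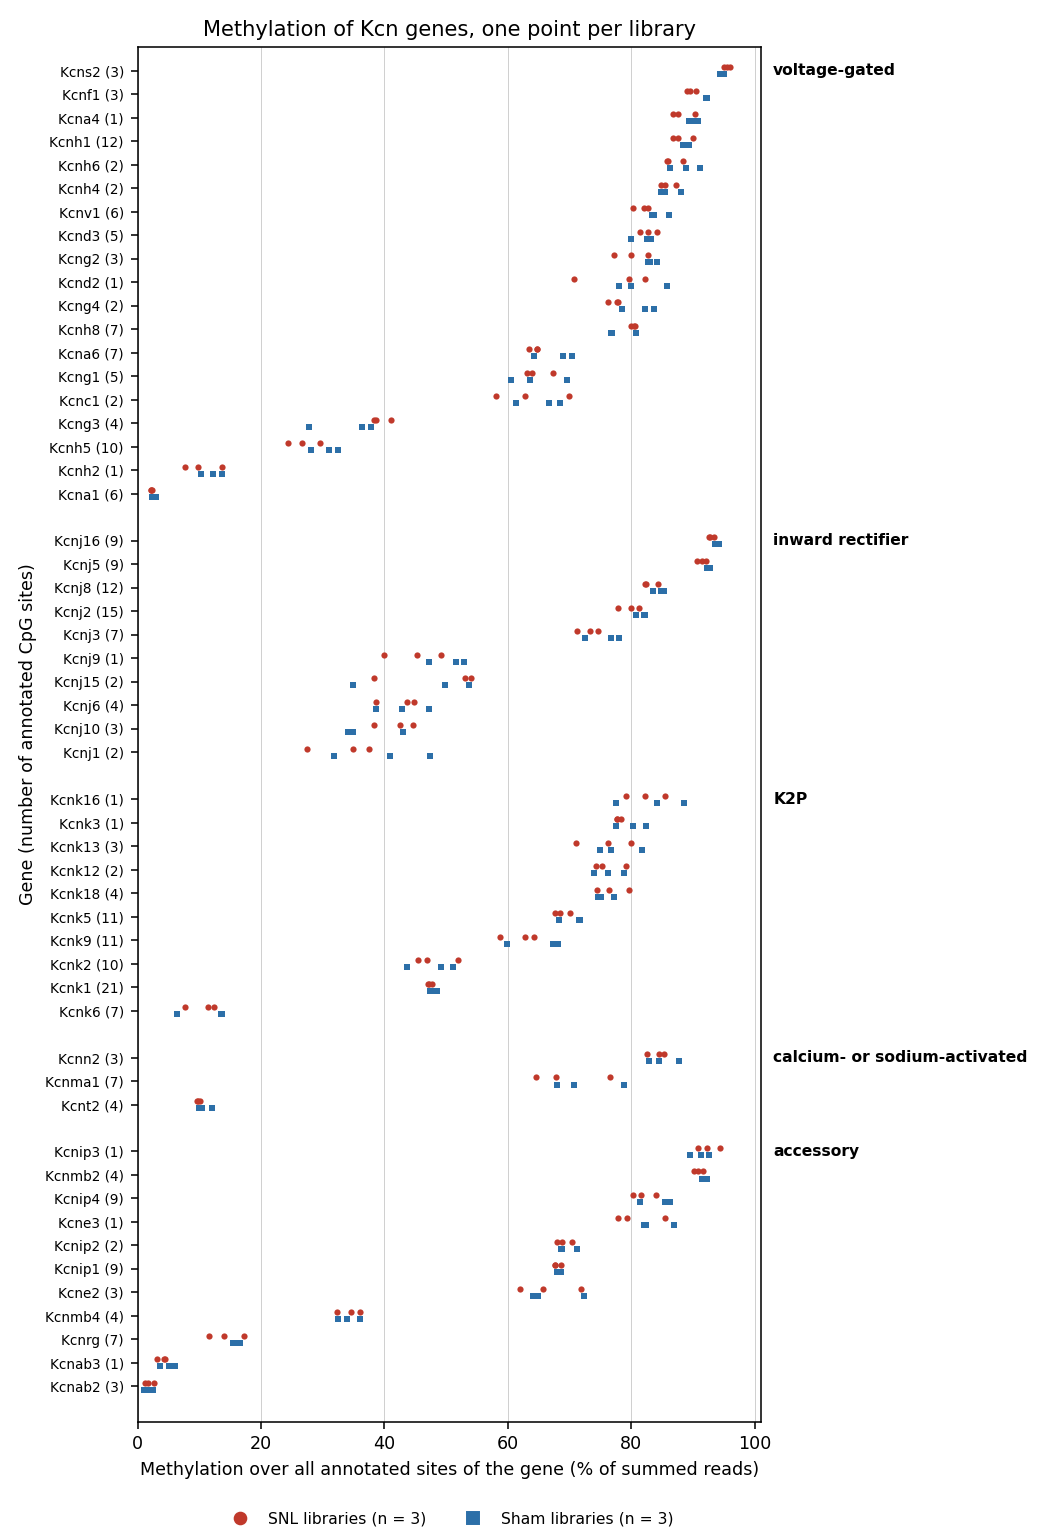
Methylation (% of reads, summed over the annotated sites assigned to each gene) in each of the 3 SNL and 3 Sham libraries for 53 of the 54 genes by channel class, with the number of sites in brackets. Genes range from Kcnab2 near 2% to Kcns2 near 95%, and the groups overlap in all but 6 of those shown.

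The authors' own test was less strict. By the q-value in the authors' deposited table, 6 of the 288 sites (2.08%) were under 0.05, against 4.54% of all sites, and all 6 were lower after SNL. Among them are sites at Kcng4 (q = 0.000741), Kcnj5 (q = 0.00238), Kcnk9 (q = 0.00993), Kcnk2 (q = 0.0411) and Kcnv1 (q = 0.0439) in the authors' deposited table. The groups do not overlap in any of the 6, which the choice by a low q-value favours.

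Beside the annotated sites, CpGs of lower coverage were read in the same regions. A further 179 CpGs with 20 reads or more in all libraries lay within 500 bp of a member, beside 48 of the genes. None was called (0.571% of all 210270 such sites were), and 15 had an unadjusted p under 0.05 (8.38%, against 8.71%). The F test and limma called none of all 210270 such sites, and gave 1 and 16 nearby sites at that level. Their levels differed from those of the nearest member by a median of 6.87 points, and 59.2% had the lower mean after SNL, beside 56.8% of all such sites.

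The depth sets what could have been seen. The 95% interval of the difference, from the fitted spread, had a median half-width of 4.36 points per member site. It was 1.87 points where methylation was under 20%, 6.67 at 20 to 80% and 3.75 above 80%. At 235 of the 288 sites the interval lies within 10 points of zero, and at 53 it does not. All but 1 of the 50 sites under 20% fall in the former set.

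Partners of the channels were counted from a list without Kcn symbols. Of its 32 genes 17 were measured, with 69 sites. Among these sites 2 were called, beside 1.42% of all annotated sites. Both were lower after SNL, assigned to Ank3 and flagged as intron. An unadjusted p under 0.05 was found at 10 of the 69 sites (14.5%), near the 13.1% of all sites, so the calls concern 1 pair of neighbouring CpGs and not the list. Ankyrin-G, its product, anchors sodium channels and KCNQ channels at the axon initial segment. The CpGs, 49 bp apart, stood at 23.7% ± 2.6 against 36.7% ± 4.7 (SD, n = 3; adjusted p = 0.000503) and at 19.9% ± 3.7 against 28.4% ± 3.2 (adjusted p = 0.0119), on 1233 reads or more. The second lost its call in several other fits, among them those without Sham 2 or Sham 3 (adjusted p = 0.0679 and 0.117). Limma called neither (adjusted p = 0.336 and 0.411), nor any other site of the table. No partner gene was called in the sums. Of 19 genes for factors known to repress or methylate channel genes, 9 were measured, with 55 sites. None of these sites or genes was called, with 5 sites at an unadjusted p under 0.05 (9.09%, against 13.1% of all sites). Mbd2, a methyl-CpG binding protein, had the lowest p (46.7% ± 1.4 against 50.2% ± 0.5, adjusted p = 0.101).

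The KCNQ genes left out of this group had 16 sites of Kcnq3 and Kcnq5, also with 0 called, and their median difference was -2.11 points. Markers of other cell types were measured at few genes. Of 40 sites of 7 neuronal genes 1 was called, lower after SNL, and none of 32 sites of 6 Schwann and satellite glia genes or of 9 sites of 3 immune cell genes. With 1.42% of all sites called, lists of this size show no contrast in these counts. Mean methylation over the sites of these lists ran from 70.3% to 71.1% after SNL and from 71.2% to 72.4% in Sham for neurons, from 54.0% to 56.5% and from 54.4% to 56.2% for glia, and from 81.8% to 84.0% and from 83.2% to 84.3% for immune cells. The glial list includes Kcnj10, and the part of cell makeup in the values above was not tested.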

How the data were processed

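DNA methylation was read in 3 SNL and 3 Sham ganglion libraries by reduced representation bisulfite sequencing, per the labels (reads of 50 bases). The submitters' processing notes name Bismark 0.18.1, Bowtie2, methylKit 1.3.3 and the rat assembly rn4, while the labels' protocol names a human assembly. Coordinates are given as listed and taken as rn4. For each library the authors deposited the read count (coverage) of each CpG and the percent of reads with C. Their deposited series table gives percent methylation, a p-value, a q-value and annotation at sites with 100 or more reads. RefSeq accessions were matched to symbols in a GRCr8 gene table, used for names only (7627 of 8123 transcripts).

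Methylated counts were recovered as coverage times percent. Each site got a logistic regression on group, with Pearson overdispersion moderated by squeezeVar of limma 3.58.1 (floor of 1), an F test and adjustment over the whole table. Gene sums and the 210270 sites with 20 or more reads were treated alike. Differences are means of library percents, SNL minus Sham. The design moderated the spread over all sites. After calls had been seen, that version and 6 others were compared, and the one reported leaves sites with reads of 1 kind only out of the moderation. It was kept partly because its count of 464 called sites equals that of an earlier analysis of these data, so that count is no independent support. The first fits had not converged at some sites where a group had reads of 1 kind only. They were replaced, and all fits reported converged. The test was tested on simulated data. For sites with 20 reads the changes put in were enlarged after smaller ones had not been recovered. Coverage summed over the listed CpGs of a library ran from 27247702 to 34293779, counting a read once for each CpG it covers. Replicates differed by more than sampling noise (mean chi-square per site from 1.57 to 2.65).

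Members, lists and tests were chosen with earlier results of these data known. Named were the 12 sites of lowest p (1 per gene), in each class the gene of lowest p, up to 3 genes with most sites and the genes of lowest and highest level, all genes with a site within 1 kb of a start, and the 3 pairs within 50 bp with the largest gap. The values of 1 gene chosen by this rule are not reported here, though it is in all counts. Others are named for their value or to complete a count, after it was seen. R 4.3.3 ran the moderation, and Python 3.11.15 (numpy 2.4.6, pandas 2.3.3) the fits and matplotlib 3.10.9 the plots.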

Additional observations from a re-analysis of the deposited data

How the results depend on the processing

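The count of 0 called member sites was kept under limma, the unmoderated F test, a library offset, a coverage minimum of 200 reads, a limit of 50 kb to the start, and 5 of the 6 fits without a library. Leaving out each library in turn gave 0 to 1 member sites, the 1 being Kcnj10 without Sham 2. The count was 3 when fitted over sites with 20 reads (Kcnk9, Kcng4 and Kcnj5, adjusted p = 0.0165, 0.0357 and 0.0338) and 6 by the q-value in the authors' deposited table. Other versions of the moderation were tried after seeing the data. Robust moderation called 3 member sites, and 794 over the table against 464. With the other versions 0 members were called, and the table's count was 441 with all sites in the moderation (as designed), 582 with the floor set first, and 464, 375 and 298 when sites needed 6, 30 or 60 reads of each kind. Among all sites with 20 reads these versions called from 58 (as designed) to 1692 (robust), against 1201, and among genes from 42 to 199, against 43. The counts of member genes and nearby sites stayed at 0 under every alternative run. Without SNL 2, SNL 3, Sham 2 or Sham 3, only 3, 3, 5 and 5 of all genes were called. The 0 for member genes in those fits adds little support. Without SNL 1 or Sham 1, 74 and 31 of all genes were called. For nearby sites a limit of 200 bp involved no new fit, and limma and the F test called none of all sites with 20 reads. The mean difference over member sites ran from -1.70 to -0.91 points without a library and from -1.64 to -0.94 under other weights and limits. With the replicate number as a block, 0 member sites, 0 genes and 0 nearby sites were called, while 226 of all annotated sites, 10 of all genes and 0 of all sites with 20 reads were. The block also ended the call of the second Ank3 site (adjusted p = 0.0565). Deviations of same-numbered libraries correlated at -0.0546, 0.256 and -0.135, so the numbers were not taken as pairs. Between SNL and Sham libraries of different numbers the correlations ran from -0.293 (SNL 2 and Sham 1) to 0.341 (SNL 3 and Sham 1). Whether libraries are paired under other numbers was not tested. Without a library the table's count ran from 129 to 546 sites, lowest without Sham 3. Of 170 alternative values of the 12 named sites and 5 gene sums, none changed direction and 1 passed the threshold, at Kcnj10. This stability is partly fixed by the choice, since the sites were picked by low p. Where the groups do not overlap, leaving out a library cannot change the direction. Limma and the F test without moderation called no site of the table, so their values at these sites add no support.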
